A study of Mus musculus with 3 samples.

Results

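The genes described here are 43 genes of the cell cycle and of DNA replication, listed by symbol. For each, the probe sets annotated with that symbol alone were found, and the one whose mean across the arrays was highest gave the gene's value. Such a probe set was found for 42 of the 43 genes, of 18193 genes on the arrays, and no level is given for the cyclin gene Ccnb1. RNA had been measured on 3 Affymetrix mouse arrays, with 1 array for each of 3 populations sorted from the spleens of adult Spic(igfp/+) mice, in which 1 Spic allele carries a green fluorescent protein (GFP) reporter. All 3 populations, the comparison group included, carry that allele. Spic-negative monocytes were CD11b and Ly6C positive without GFP, Spic-positive monocytes were CD11b and Ly6C positive with GFP, and red pulp macrophages were F4/80 high and GFP high. The design text has CD4, CD8 and B220 bearing cells removed with magnetic beads before the monocyte sort, and no sort step used a label of DNA content, division or erythroid cells. The labels do not say how many mice went into a population. With 1 array for each, no spread between animals could be estimated, no test was run, and every difference below is a difference of log2 values between 2 single arrays.

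A dividing cell passes from G1 into S phase, in which it copies its DNA, and through G2 into mitosis (M phase). Cyclins switch on the cyclin-dependent kinases (CDKs) that drive these steps, CDK inhibitors hold them back, and the retinoblastoma protein keeps E2F factors silent until D-type and E-type cyclins release them. E2F factors then raise genes for origin licensing and DNA synthesis, while genes for mitosis are held down in resting cells and raised later by complexes that bind the cell cycle genes homology region, or CHR. Tissue macrophages can renew themselves by division, whereas blood-derived monocytes mostly do not divide. The red pulp of the mouse spleen is also a site where red cell precursors multiply.

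Promoter sequences are shown for 6 genes that stood for the M-phase and the replication genes, because motifs of these promoters are known to set the phase in which such genes are expressed. The sequences are RefSeq promoters of the GRCm38.p6 assembly, cut to 170 bases before and 30 after the annotated start and written 5′ to 3′ on the strand of the gene. Capitals mark, on either strand, the CHR motif (TTTGAA or TTTAAA), the CCAAT box (CCAAT) and 4 forms of the E2F motif (TTTCCCGC, TTTCGCGC, TTTGGCGC and TTTGCCGC). Cdk1 (chr10:69352883-69353082, minus strand), Cdc20 (chr4:118437314-118437513, minus strand) and Top2a (chr11:99024160-99024359, minus strand) are the M-phase genes.
Cdk1: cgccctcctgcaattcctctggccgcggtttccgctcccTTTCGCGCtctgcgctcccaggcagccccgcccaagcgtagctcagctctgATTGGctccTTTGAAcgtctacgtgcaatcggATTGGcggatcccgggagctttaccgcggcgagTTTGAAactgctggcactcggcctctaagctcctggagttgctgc
Cdc20: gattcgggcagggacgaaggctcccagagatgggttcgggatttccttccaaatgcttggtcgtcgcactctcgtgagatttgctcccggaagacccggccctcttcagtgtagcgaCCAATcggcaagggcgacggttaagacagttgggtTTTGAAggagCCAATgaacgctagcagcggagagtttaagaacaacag
Top2a: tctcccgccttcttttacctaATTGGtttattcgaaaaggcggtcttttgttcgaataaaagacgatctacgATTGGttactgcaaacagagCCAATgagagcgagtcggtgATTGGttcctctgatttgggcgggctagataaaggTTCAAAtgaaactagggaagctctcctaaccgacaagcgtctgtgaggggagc
Cdc6 (chr11:98907981-98908180, plus strand), Mcm5 (chr8:75109339-75109538, plus strand) and Mcm6 (chr1:128359676-128359875, minus strand) load or form the replicative helicase.
Cdc6: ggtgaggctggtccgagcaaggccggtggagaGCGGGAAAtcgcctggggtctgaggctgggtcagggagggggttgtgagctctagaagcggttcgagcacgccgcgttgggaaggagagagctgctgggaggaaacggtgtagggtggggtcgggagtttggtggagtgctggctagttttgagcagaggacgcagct
Mcm5: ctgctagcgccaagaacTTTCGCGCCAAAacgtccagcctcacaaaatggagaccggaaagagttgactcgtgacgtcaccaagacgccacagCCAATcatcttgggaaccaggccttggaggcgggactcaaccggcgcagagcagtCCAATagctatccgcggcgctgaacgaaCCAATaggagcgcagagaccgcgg
Mcm6: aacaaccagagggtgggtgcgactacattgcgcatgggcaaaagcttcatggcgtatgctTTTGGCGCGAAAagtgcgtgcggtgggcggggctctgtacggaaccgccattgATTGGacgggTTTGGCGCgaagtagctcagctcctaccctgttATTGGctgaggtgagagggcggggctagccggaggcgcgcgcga

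RefSeq promoters of 300 bases (250 before to 50 after the start) were matched to 35 of the 43 genes. Of 16 M-phase genes with a promoter, Ccnb1 included, 14 held a CHR motif, all but Bub1 and Mad2l1, against 30.6% of all 27025 genes with a promoter. The CCAAT box was found in 14 of these 16 and in 10 of 13 replication genes, against 41.1% of all genes. An E2F motif was found in 7 of 13 replication genes, namely Cdc6, Cdt1, Mcm3, Mcm5, Mcm6, Mcm7 and Pola1, and in 1 M-phase gene, Cdk1, against 2.60% of all genes. Of the 6 other genes with a promoter, Ccnd3, Ccne1, E2f1 and the inhibitors Cdkn1a, Cdkn1b and Cdkn2c, 0 held an E2F motif of these 4 forms. Counted by promoter, the shares were 27.6% for CHR, 37.4% for CCAAT and 2.26% for E2F over all 32851 promoters. A gene counted if any of its promoters matched, and 1 pair of matches of different motifs overlapped. A match is a description of the letters and not a measured binding site.

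**Figure D1:**
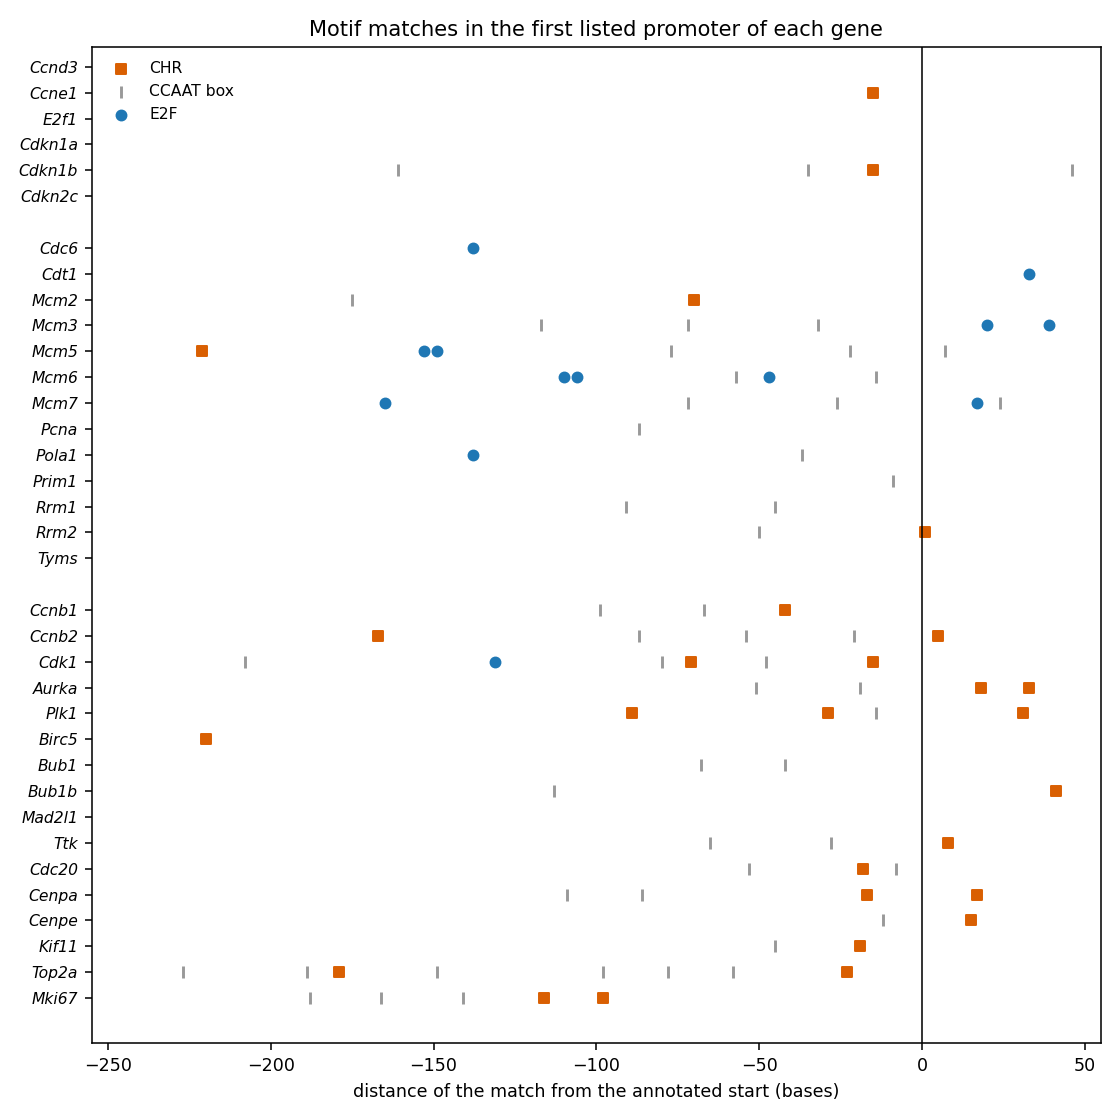
Distance in bases of each motif match from the annotated start (vertical line at 0), 1 row per gene, in the promoter that RefSeq lists first. Orange squares are CHR, blue circles E2F and grey ticks CCAAT; the lower block of M-phase genes holds CHR squares in 14 of 16 rows, and E2F circles lie mainly in the middle block of replication genes.

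The arrays were checked before the genes were read. Spic, the gene behind the sort, measured 5.66, 9.22 and 12.23 (here and below in the order Spic-negative monocytes, Spic-positive monocytes, macrophages). The arrays also differed in ways the labels do not name. All 18 hybridization controls, which are added in equal amounts, were brighter with Spic-positive than with Spic-negative monocytes. Their median difference was 2.16, against 0.07 for macrophages over Spic-negative monocytes. The 3' minus 5' signal of the Gapdh control was 0.48, 2.25 and 1.61, and that of the beta-actin control was 0.74, 0.57 and 1.13, so only Gapdh set the Spic-positive array highest. Xist, transcribed from the inactive X chromosome of females, measured 4.63 and 4.70 in the monocytes and 11.95 in macrophages, and the Y-linked gene Eif2s3y measured 10.10, 9.56 and 3.31. Sex and population therefore cannot be told apart in either comparison with macrophages. The part of these differences in the values below was not tested.

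Most of the genes were brightest in red pulp macrophages. Of 42 genes, 41 lay above the floor (log2 5.02, at which the non-control probe sets divide evenly) on at least 1 array, and the other, Tyms, is given apart. Of these 41, 36 were at least 2-fold higher in macrophages than in Spic-negative monocytes, where 19.6% of the 12375 genes above the floor were, and 3 were at least 2-fold lower, where 11.3% were. Against Spic-positive monocytes 36 were higher and 2 lower, beside 22.0% and 11.6% of all genes. In Spic-positive against Spic-negative monocytes 8 were past 2-fold upward and 0 downward, beside 3.49% and 3.06%. The macrophage array was the brightest for 37 of the 41 and for 45.5% of all genes. The Spic-negative array was the brightest for the other 4, E2f1, Ccnd3, Cdkn1a and Cdkn1b, and for 28.6% of all genes. The Spic-positive array was the brightest for 0 of the 41 and for 25.9% of all genes. These comparisons share arrays, so their counts are not independent. Ccne2, Cdc6 and Ttk lay above the floor on the macrophage array only, so the floor itself favours their count as higher there. In bulk RNA, fewer dividing cells and less RNA per dividing cell cannot be told apart.

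The median difference of the 41 genes was 2.48 for macrophages over Spic-negative monocytes, 1.97 over Spic-positive monocytes and 0.33 between the monocyte arrays. The same medians over all genes above the floor were 0.03, 0.10 and -0.06. Replication genes had medians of 2.93, 2.33 and 0.30 over 14 genes, and M-phase genes 2.40, 1.57 and 0.52 over 18 genes. The remaining 9, namely the D-type and E-type cyclins, E2f1 and the CDK inhibitors, ran from -1.95 to 5.68 between macrophages and Spic-negative monocytes. Of the 41 genes 7 lay at or below the floor in Spic-negative monocytes (Ccne2, Cdc6, Prim1, Bub1, Ttk, Kif11 and Kif20a), so the size of their differences depends on background.

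**Figure D2:**
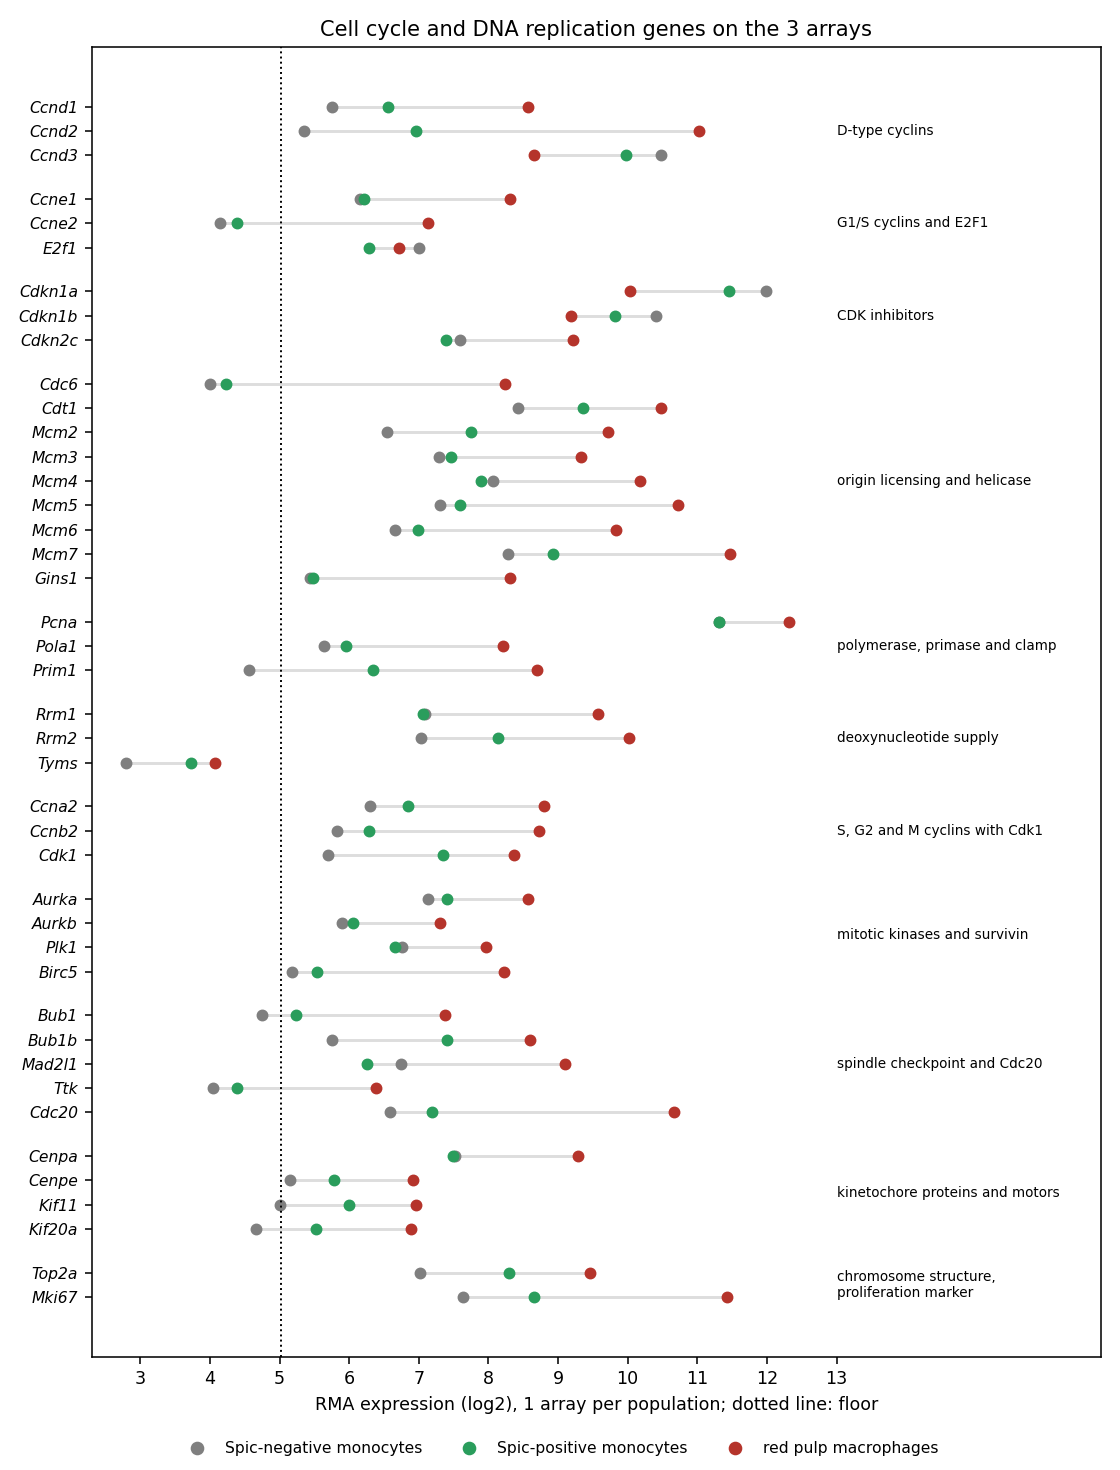
RMA expression (log2, horizontal axis) of the 42 genes with a probe set, 1 row per gene and 1 point per array, grouped by role; the dotted line is the floor at log2 5.02. Red points (macrophages) lie furthest right in 37 of the 41 genes above the floor, and in E2f1, Ccnd3, Cdkn1a and Cdkn1b the grey points (Spic-negative monocytes) do.

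**Figure D3:**
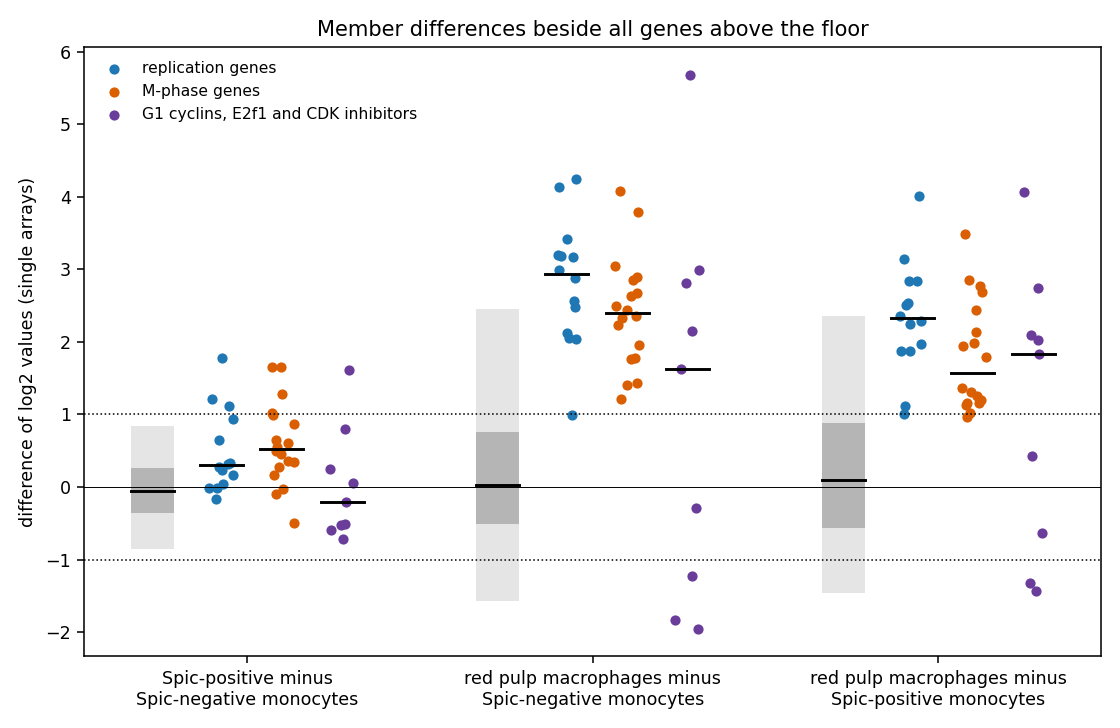
Differences of log2 values between single arrays (vertical axis) for the 41 genes above the floor in the 3 comparisons, coloured by role, with a black bar at each median. Grey boxes span the 5th to 95th (light) and 25th to 75th (dark) percentiles of 12375 genes; in both macrophage panels every replication and M-phase gene lies above the dark box, while G1 genes spread to both sides of 0.

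The D-type cyclins, which activate CDK4 and CDK6 in G1, differed most from each other. Ccnd2 measured 5.35 and 6.96 in the monocytes and 11.03 in macrophages. It was higher by 5.68 (51.1-fold) in macrophages than in Spic-negative monocytes, the widest difference among the 41 genes, and by 1.61 between the monocyte arrays. Of its 7 probe sets, 6 lay above the floor, and these ran from 3.62 to 5.96 and from 1.47 to 3.10 in the same comparisons.

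Ccnd1 measured 5.75, 6.55 and 8.57 a difference of 2.81 between macrophages and Spic-negative monocytes, and its further probe sets gave 2.23 and 3.14. Ccnd3 went the other way, at 10.48, 9.97 and 8.65. Macrophages were lower by 1.83 on the log2 scale (3.55-fold), with further probe sets of Ccnd3 at -3.80 and -0.82. The monocyte arrays were thus high for Ccnd3 and low for Ccnd1 and Ccnd2, and Ccnd1 and Ccnd2 were high on the macrophage array.

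The E-type cyclins activate CDK2 at the entry to S phase, and both were brightest in macrophages. Ccne1 measured 6.15, 6.21 and 8.31, higher in macrophages than in Spic-negative monocytes by 2.16, while the monocyte arrays differed by 0.06. Ccne2 measured 4.14, 4.39 and 7.13 and was above the floor on the macrophage array only. E2f1, an activating E2F factor, did not follow them. Its levels were 7.0, 6.29 and 6.72, with macrophages at -0.28 against Spic-negative monocytes on this probe set and 0.43 on a further probe set.

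Among the CDK inhibitors, Cdkn1a (p21), a target of p53, and Cdkn1b (p27), which holds resting cells in G1, were bright in monocytes. Cdkn1a measured 11.98, 11.46 and 10.03, and macrophages were lower by 1.95 (3.87-fold), with -2.82 on its further probe set. Cdkn1b measured 10.41, 9.82 and 9.19, and macrophages were lower by 1.22. A further, dimmer probe set of Cdkn1b read 6.18, 5.70 and 6.86, a difference of 0.67, so the direction of Cdkn1b rests on the choice of probe set. Cdkn2c (p18), which binds CDK4 and CDK6, measured 7.60, 7.39 and 9.22, higher in macrophages than in Spic-negative monocytes by 1.62.

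**Figure D4:**
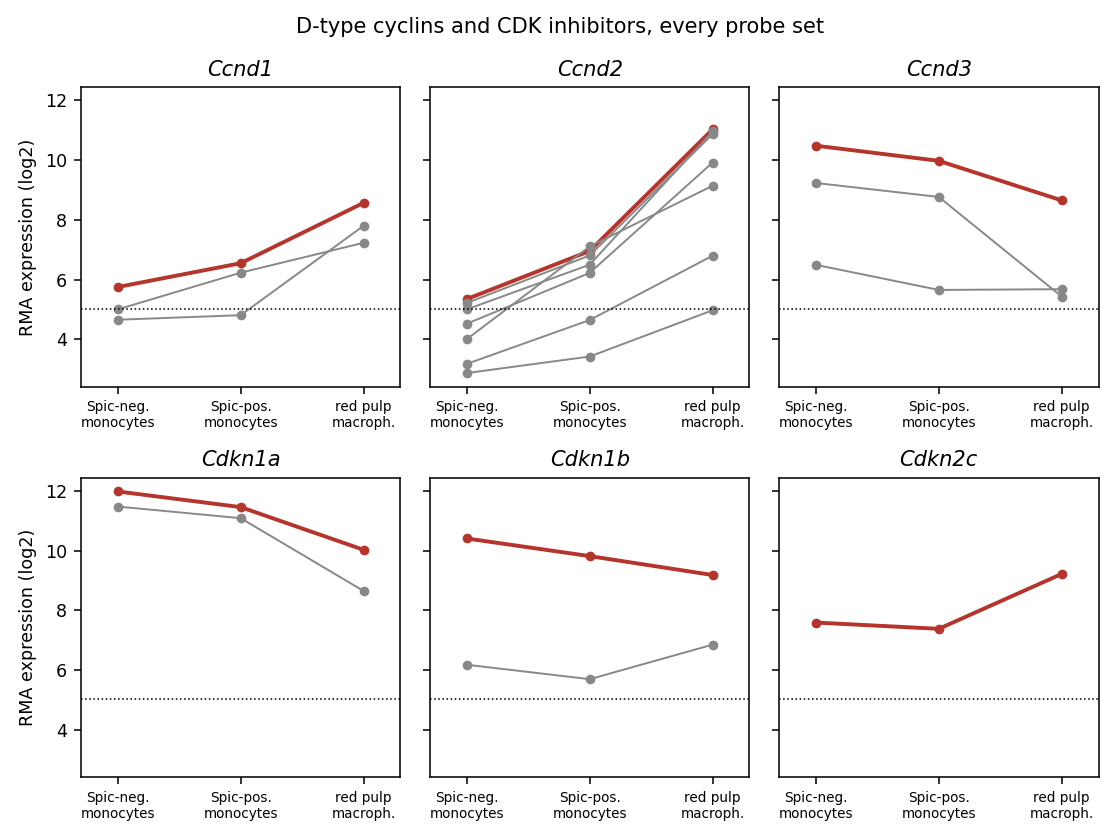
RMA expression (log2, vertical axis) on the 3 arrays for every probe set of the D-type cyclins and CDK inhibitors; red lines are the probe sets used, grey lines the further ones, lines join values of 1 probe set and the dotted line is the floor. Ccnd1 and Ccnd2 are highest on the macrophage array in every probe set drawn, Ccnd3 and Cdkn1a are highest on the Spic-negative array, and the 2 probe sets of Cdkn1b differ in direction between macrophages and monocytes.

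All 9 genes for origin licensing and the helicase were at least 2-fold higher in macrophages than in either monocyte population, with medians of 3.17 and 2.54. Cdc6, which loads the helicase onto origins and holds the E2F motif shown above, measured 4.0, 4.24 and 8.24, below the floor in both monocyte populations. Cdt1, its partner in loading, was already at 8.42 in Spic-negative monocytes and measured 9.36 and 10.48 in the others. The helicase subunit genes Mcm2 to Mcm7 were higher in macrophages than in Spic-negative monocytes by 2.04 to 3.42. Mcm5, at 7.31, 7.59 and 10.73, had the widest of these differences, with 2.45 on its further probe set above the floor in place of 3.42. Mcm7 measured 8.28, 8.93 and 11.47. Mcm6 measured 6.66, 6.99 and 9.83.

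The monocyte arrays lay closer together in most of these genes. Mcm4 differed by -0.17, Mcm3 by 0.17 and Mcm5 by 0.28. Gins1, a subunit of the GINS complex that completes the active helicase, measured 5.43, 5.47 and 8.31 and differed by 0.04. Mcm7 differed by 0.65 and Cdt1 by 0.94. Mcm2 alone passed 2-fold, at 6.54 and 7.75, a difference of 1.22, but its further probe set gave 0.39.

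Prim1, the catalytic primase subunit, measured 4.56, 6.34 and 8.70. The monocyte arrays differed by 1.78 in Prim1, the widest among the 41 genes, with 1.05 on its further probe set, although its Spic-negative level is below the floor. Pola1, the catalytic subunit of DNA polymerase alpha on the X chromosome, measured 5.64, 5.96 and 8.20. Pcna, the sliding clamp for the polymerases, was bright on every array at 11.32, 11.30 and 12.31. Macrophages exceeded Spic-negative monocytes by 1.99-fold, just under the 2-fold line, and Spic-positive monocytes by 2.01-fold, just over it.

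Ribonucleotide reductase makes deoxynucleotides from ribonucleotides, and its subunit genes compared differently between the monocyte arrays. Rrm1, for the large subunit, measured 7.08, 7.07 and 9.57. The monocyte arrays differed by -0.02 on this probe set of Rrm1 and by -0.89 on its further one above the floor. Rrm2, for the subunit that is made in S phase, measured 7.03, 8.14 and 10.02, with 1.11 between the monocyte arrays on this probe set and 0.29 and 0.45 on its further ones. Tyms, for thymidylate synthase, measured 2.79, 3.73 and 4.07 and lay below the floor on all arrays on each of its 4 probe sets, so nothing was read from it.

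Of the cyclins and CDK of S, G2 and M phase, Ccna2 measured 6.30, 6.85 and 8.80 and Ccnb2 5.83, 6.29 and 8.72. Cdk1, the kinase that drives entry into mitosis, measured 5.70, 7.35 and 8.37. Cdk1 was thus at 1.65 (3.13-fold) between the monocyte arrays and 1.03 between macrophages and Spic-positive monocytes, while Ccnb2 was at 0.46 and 2.44. The Cdk1 promoter was the only M-phase promoter among the 16 to hold CHR, CCAAT and E2F motifs together, as printed above.

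The mitotic kinase genes had the smallest differences of the M-phase genes between macrophages and Spic-negative monocytes, though not against Spic-positive monocytes. Aurka, which matures the spindle poles, measured 7.13, 7.41 and 8.56. Aurkb, of the chromosomal passenger complex, measured 5.90, 6.06 and 7.31, and Plk1, which acts throughout mitosis, 6.75, 6.66 and 7.97. These 3 genes were higher in macrophages than in Spic-negative monocytes by 1.21 to 1.43. Birc5 (survivin), the partner of Aurkb in that complex, measured 5.17, 5.54 and 8.22 and was higher by 3.05.

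The spindle checkpoint delays anaphase until chromosomes are attached, and Cdc20 is the activator of the anaphase-promoting complex that it restrains. Cdc20 measured 6.58, 7.19 and 10.67, and its difference of 4.08 (17.0-fold) between macrophages and Spic-negative monocytes was the widest among M-phase genes. Its further probe sets gave 2.85 and 0.66. Bub1b (BubR1) measured 5.75, 7.40 and 8.60, with 1.66 between the monocyte arrays and 1.39 on its further probe set above the floor. Mad2l1 went slightly the other way between monocytes at 6.74 and 6.25 and reached 9.10 in macrophages. Bub1 measured 4.75, 5.24 and 7.38 and Ttk, the kinase also called Mps1, 4.05, 4.39 and 6.38.

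Cenpa, the histone H3 variant of centromeres, measured 7.52, 7.50 and 9.28. The kinetochore motor gene Cenpe measured 5.14, 5.79 and 6.92, and Kif20a, a motor of cytokinesis, 4.66, 5.53 and 6.89. Kif11, the motor that separates spindle poles, measured 5.01, 6.0 and 6.97. Only this probe set of Kif11 was higher in macrophages, and the further one above the floor gave -0.06 against Spic-negative monocytes.

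Top2a, which untangles DNA before anaphase, measured 7.01, 8.30 and 9.45. Its further probe set above the floor read 4.75, 5.81 and 5.21, so Spic-positive monocytes exceeded Spic-negative ones on both probe sets, by 1.29 and 1.06. Macrophages exceeded Spic-positive monocytes by 1.15 on the first of these and lay at -0.60 on the other. Mki67, the Ki-67 antigen of cycling cells, measured 7.64, 8.66 and 11.43 on its single probe set. It was higher by 3.79 (13.8-fold) in macrophages than in Spic-negative monocytes and by 1.02 (2.03-fold) between the monocyte arrays.

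The 8 genes past 2-fold upward between the monocyte arrays, in favour of Spic-positive cells, were Ccnd2, Mcm2, Prim1, Rrm2, Cdk1, Bub1b, Top2a and Mki67. They came from several roles, with 3 replication genes, 4 M-phase genes and 1 D-type cyclin among them. Their 11 other probe sets with a value above the floor, from 6 of the 8 genes, all differed in the same direction, 8 of them by 2-fold or more. Ccnd2 and Prim1 stayed past 2-fold under each alternative for probe sets or normalization, and Mcm2, Rrm2, Bub1b and Top2a did not. Cdk1 and Mki67 have 1 probe set each, so only the normalization could move them, to between 1.58 and 1.8 for Cdk1 and between 0.95 and 1.19 for Mki67. Kif11 at 0.99, Cdt1 at 0.94 and Kif20a at 0.87 lay just under the line on the probe sets used. The further probe sets above the floor gave 0.41 for Kif11 and 0.23 for Cdt1. Kif11 and Kif20a were at or below the floor in Spic-negative monocytes. Of the 41 genes 11 lay below 0, the lowest E2f1 at -0.72, where the median of all genes was -0.06. The 3 inhibitors and Ccnd3 were among the 11, from -0.59 for Cdkn1b to -0.21 for Cdkn2c.

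In macrophages against Spic-negative monocytes, 39 genes differed by at least 2-fold, and 35 of 37 other probe sets above the floor had the same direction, 31 of them past 2-fold. The exceptions in direction were the further probe sets of Cdkn1b and Kif11. Against Spic-positive monocytes 33 of 35 had the same direction, all but 1 each of Top2a and Ccnd3, and 29 of them passed 2-fold. These counts speak to error among probe sets only, because every probe set of a gene read the same labelled RNA.

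Other genes of the pathway, in 3 lists of 144 genes, were read beside the members, and 137 lay above the floor. Of 59 further mitotic genes, 45 were at least 2-fold higher in macrophages than in Spic-negative monocytes and 0 lower, with a median of 2.09. Of 39 further replication genes 24 were higher and 0 lower (median 1.62), and of 39 other G1 and checkpoint regulators 13 were higher and 2 lower (median 0.29). Over all genes above the floor 19.6% were higher and 11.3% lower. The widest were Cdca5 (sororin, which holds sister chromatids together) at 4.89, the thymidine kinase gene Tk1 at 4.67, the DNA repair gene Brca1 at 3.82, the kinetochore gene Cenpf at 3.81 and the condensin subunit gene Ncapg at 3.63. On the Spic-negative array each of these widest genes read under the floor, so the sizes given for them depend on background. Of the 60 mitotic genes with a probe set, 27 did not exceed the floor on that array. The antiproliferative gene Btg1 was lower by 1.37 and the CDK inhibitor gene Cdkn2d (p19) by 1.21.

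Against Spic-positive monocytes, macrophages were at least 2-fold higher in 40 of the 59 mitotic genes, 22 of the 39 replication genes and 14 of the 39 regulators, and lower in 2, 1 and 1. Over all genes these shares were 22.0% and 11.6%. Tk1 was at 4.83, Cenpf at 4.20, Brca1 at 4.11, the DNA ligase gene Lig1 at 3.89 and Cdca5 at 3.71. Tk1, Cenpf and Brca1 were dimmer than the floor on the Spic-positive array, so their sizes depend on background too. The lower genes were Pkmyt1 (-1.21), a kinase that restrains Cdk1, Cit (-1.12), a kinase of cytokinesis, the origin recognition gene Orc4 (-1.04) and Foxm1 (-1.03), a factor of M-phase genes whose probe sets disagreed in direction. In Spic-positive against Spic-negative monocytes 9 mitotic genes, 0 replication genes and 2 regulators were at least 2-fold higher, and 1, 0 and 2 lower. Over all genes the shares were 3.49% and 3.06%, and the counts for replication genes and regulators lie near them. The widest were the kinesin gene Kif18b at 1.96, Myc at 1.56, the checkpoint kinase gene Chek1 at 1.47, the kinesin gene Kif2c at 1.22 and Cdca5 at 1.18. Of these widest genes all but Myc had Spic-negative values under the floor, so the same limit holds for their sizes. Cdkn2d (-1.70), the E2F factor gene E2f2 (-1.70) and Racgap1 (-1.26), a regulator of cytokinesis, were lower.

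Markers of other cell types were read beside these genes. Erythroid markers were at least 2-fold higher in macrophages than in Spic-negative monocytes in 12 of 12 genes above the floor, with a median of 4.73. Over all genes 19.6% were. Slc4a1, Klf1, Hemgn, Car2 and Rhag lay above the floor on the macrophage array only, so the floor itself favours a rise in this count. Their levels ran from 2.74 to 6.83 (median 4.69) and from 2.60 to 7.5 (median 4.86) in the monocytes and from 3.85 to 12.08 (median 9.53) in macrophages, over 14 genes. Hemgn measured 2.75, 2.60 and 10.35, Car2 4.57, 4.68 and 12.08, and Slc4a1, the anion exchanger of red cells, 3.86, 3.83 and 11.32. Epb42 and the probe set annotated with Hba-a1 alone stayed below the floor on all arrays and are not among the 12. Between macrophages and Spic-negative monocytes they differed by 0.62 and 0.19. Globin probe sets were also read, singled out after their values were seen. Those shared by the alpha-globin genes Hba-a1 and Hba-a2 were higher in macrophages than in Spic-negative monocytes by 7.48, 7.95 and 8.15. The probe set shared by beta-globin genes was higher by 5.68, and the remaining globin probe sets above the floor ran from -0.08 to 3.13. The part of erythroid RNA in the macrophage values of the cell cycle genes was not tested.

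Against Spic-positive monocytes the same 12 of 12 were also higher in macrophages, beside 22.0% of all genes, with a median of 4.38. None of the 12 differed by 2-fold between the monocyte arrays (median 0.06), where 3.49% of all genes were higher and 3.06% lower. However, 3 probe sets shared by the alpha-globin genes Hba-a1 and Hba-a2, singled out after their values were seen, were higher in Spic-positive monocytes by 4.04, 4.71 and 5.13. The shared beta-globin probe set was higher by 1.76, and the remaining globin probe sets above the floor ran from -0.23 to 1.55. Of markers of granulocyte-monocyte progenitors, which divide, 7 of 9 were past 2-fold upward in Spic-positive monocytes (median 1.69), beside 3.49% of all genes. Their levels ran from 3.50 to 8.60 (median 5.39) and from 4.74 to 9.43 (median 6.82) in the monocytes and from 3.29 to 8.50 in macrophages (median 6.88), with Cd34 below the floor on all. Mpo (myeloperoxidase) measured 6.35, 9.21 and 8.22, the growth factor receptor gene Kit 4.0, 6.16 and 6.40, and Ctsg (cathepsin G) 5.27, 7.31 and 7.95.

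Of B cell markers 10 of 11 were past 2-fold upward in Spic-positive monocytes (median 1.5), beside 3.49% of all genes. Their levels ran from 4.24 to 11.47 (median 5.60) and from 5.29 to 12.97 (median 8.08) in the monocytes and from 4.0 to 14.49 in macrophages (median 6.61). Cr2 was higher by 2.48, Blk by 2.42 and Ms4a1 by 2.39. Ebf1, among the 10, lay above the floor on the Spic-positive array only. Of dendritic cell markers 3 of 7 were higher, Ccr7 by 4.05, Itgax by 3.14 and Zbtb46 by 1.25, and of plasma cell markers 1 of 8, Mzb1 by 1.19. Of T cell, NK cell and platelet markers 0 of 8, 0 of 6 and 0 of 5 passed 2-fold between the monocyte arrays, and of neutrophil markers 1 of 7 did, Mmp9 at -1.10. Over all genes 3.49% were higher and 3.06% lower, so 0 or 1 in lists this short does not set them apart. The part of these cells in the 8 cell cycle genes higher in Spic-positive monocytes was not tested.

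In macrophages against Spic-negative monocytes, markers at least 2-fold higher were 5 of 9 for progenitors (Myb by 4.16), 5 of 11 for B cells (Ighm by 3.02), 5 of 8 for plasma cells (Mzb1 by 4.55) and 6 of 8 for T cells (Cd3g by 3.51). They were 3 of 6 for NK cells (Gzma by 4.93), 1 of 7 for neutrophils (Ltf by 1.46, with Mmp8 at -3.38 and Cxcr2 at -1.49), 4 of 7 for dendritic cells (Zbtb46 by 2.50) and 2 of 5 for platelets (Ppbp by 4.85). Over all genes above the floor 19.6% were higher and 11.3% lower, and the neutrophil count lies near the first share. Gzma, Eomes, Klre1, Cd3d, Cd3g, Cd247, Bcl11b, Tnfrsf17 and Ppbp lay above the floor on the macrophage array only. For these genes the floor itself favours a rise in the counts. The labelled types carried their own markers. All 12 red pulp macrophage markers were higher, with Vcam1 by 9.58, and 5 of 6 monocyte markers were lower, with Ccr2 at -5.50 and F13a1 at -5.26. In Spic-positive against Spic-negative monocytes 9 of the 12 macrophage markers were higher, Spic of the sort included, beside 3.49% of all genes. There 2 of the 6 monocyte markers were lower, Vcan at -1.56 and Itgam, for CD11b, at -1.30, beside 3.06%.

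**Figure D5:**
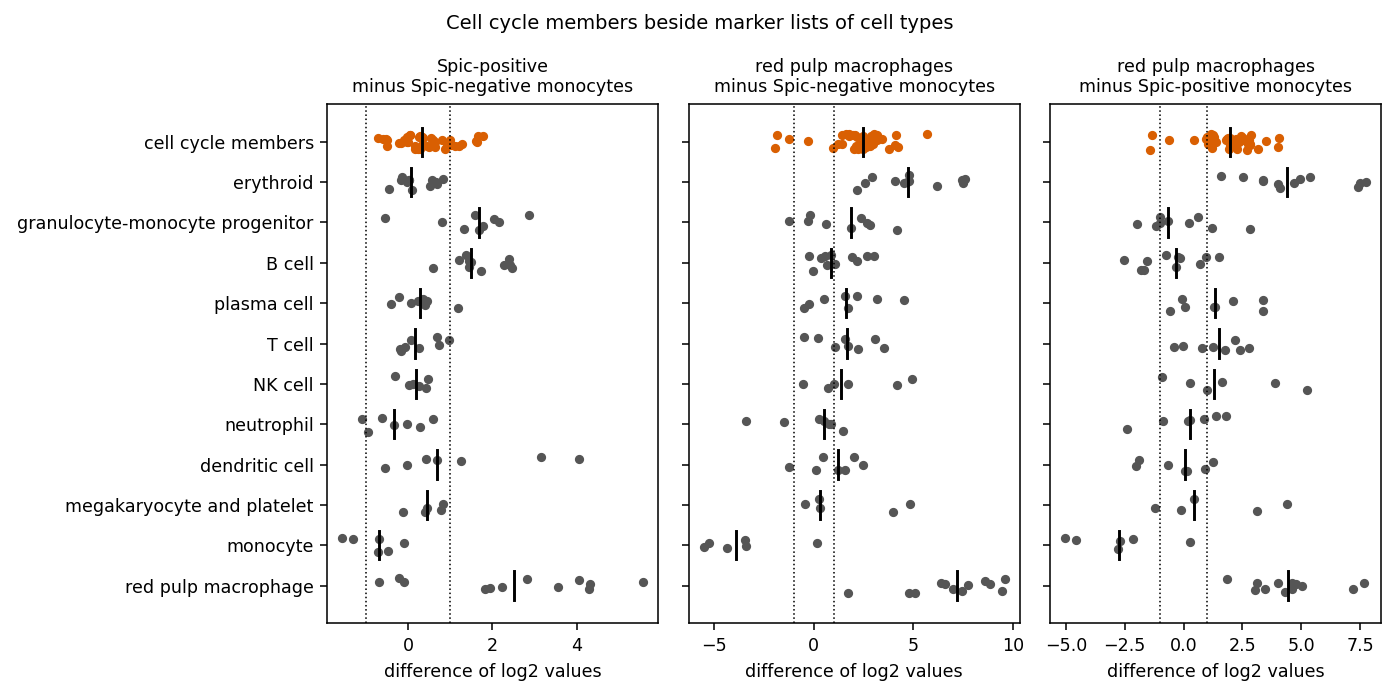
Differences of log2 values between single arrays (horizontal axis; dotted lines at 2-fold) for the 41 cell cycle genes (orange) and for the members above the floor of 11 marker lists (grey), 1 panel per comparison, with a black bar at each median. Between the monocyte arrays the progenitor and B cell medians (1.69 and 1.5) exceed that of the cell cycle genes (0.33), and in macrophages over Spic-negative monocytes the erythroid median (4.73) exceeds 2.48.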

How the data were processed

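The authors deposited log2 expression values per probe set, made with RMA per the submitters' processing notes. The RMA version was not given in the sources used. The log2 scale was taken from the values, which ran from 1.82 to 14.50. RMA sets the arrays to a common distribution, which hides any change in the RNA content of cells. Per the labels' protocols, cRNA was amplified over 2 cycles, which shortens it. Of 45101 probe sets, 64 were controls, 34945 had 1 gene symbol in the platform annotation (updated through the gene identifier for 34741), 932 had several and named no gene, and 9160 were unnamed here.

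Each of 18193 genes took its probe set with the highest mean, and 12375 with an array above log2 5.02 were compared, by size only, at 2-fold. The number of arrays limits the precision. Named are all members, the 5 pathway genes furthest up or down past 2-fold, and the 3 markers of widest difference per list, fewer where the text is shortened. Members and lists were chosen with earlier results of these data known. Alternatives were the mean or median of probe sets, 3 normalizations, 2 floors, 2 folds, and no probe sets ending in _x_at, _s_at or _a_at. Python 3.11.15, numpy 2.4.6, pandas 2.3.3, matplotlib 3.10.9, limma 3.58.1 and R 4.3.3 were used, and counts and motif searches were tested on simulated data.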

Additional observations from a re-analysis of the deposited data

How the results depend on the processing

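Under the alternatives for probe sets, normalization and floor, the counts of members past 2-fold and their medians kept to within 1.5 times, or within the spread between probe sets of a gene, with 1 exception. The mean of probe sets left 4 members higher in Spic-positive monocytes in place of 8. At 1.5-fold 15 were higher and 2 lower (10.4% and 12.6% of all genes), and at 4-fold 0 were higher (0.663%). In macrophages at 4-fold 0 members were lower than in Spic-negative or Spic-positive monocytes (2.63% and 2.04% of all genes), and 19 were higher than in Spic-positive monocytes in place of 36 (7.22%). The direction of Kif11 in macrophages against Spic-negative monocytes turned with the median of probe sets (-0.10). That of Top2a against Spic-positive monocytes turned with the median, and without probe sets ending in _x_at, _s_at or _a_at (-0.60 in both). Cdkn1b, under 2-fold there, went from -0.63 to 0.26 with the mean or median. The cause was not tested. The median over all genes between the monocyte arrays moved from -0.06 to 0.04 with cyclic loess, and that between macrophages and Spic-positive monocytes from 0.10 to 0.23 with centred arrays and -0.03 with a repeated quantile normalization. Relative to it the member medians were 0.39 and 0.41, and 1.87, 1.86 and 1.78. Of all genes past 2-fold between the monocyte arrays 53.3% were higher, against 42.4% with centred arrays and 63.3% with cyclic loess. No paired analysis was possible because each group had 1 array.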

Other observations

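Genes for factors that bind the E2F and CHR motifs, and for their partner proteins, were set side by side after their values had been seen. They were 17 genes, those of the E2F, DP and retinoblastoma families, Foxm1, Mybl2, Lin9 and Lin54, of which 16 lay above the floor. In macrophages against Spic-negative monocytes 1 of the 16 was at least 2-fold higher, the DP family gene Tfdp2 at 1.72, and 0 were lower, beside 19.6% and 11.3% of all genes, with a median of -0.13. E2f1 was at -0.28, E2f2 at -0.73, Foxm1 at -0.46 and Mybl2 at 0.96, and the retinoblastoma family genes Rb1, Rbl1 and Rbl2 were at -0.92, -0.17 and -0.87. Tfdp2 was higher on each of its 4 probe sets, by 0.74 to 2.71. Against Spic-positive monocytes 4 were at least 2-fold higher, Tfdp2, E2f6, Lin54 and E2f8, and 1 lower, Foxm1, beside 22.0% and 11.6% of all genes, with a median of 0.60. Between the monocyte arrays 0 were 2-fold higher and 1 lower, E2f2, beside 3.49% and 3.06%, with a median of -0.22. RNA levels do not show the activity of these factors, which is set largely by phosphorylation.

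The probe sets of Foxm1 disagreed. In macrophages against Spic-positive monocytes 2 of the 3 above the floor lay at -1.03 and -1.67, and the other at 0.23. Those of Lin54 disagreed there too, at 1.30 on the probe set used and -1.89 on the further one. Against Spic-negative monocytes, further probe sets of E2f2, Rb1 and Lin54 lay at -1.29, -1.42 and -2.09. The count of 0 lower there thus rests on the choice of probe set.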
